A study of Mus musculus with 16 samples.

Results

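The livers of mice on a high-fat diet with *Fgfr4* silenced (HFD/FGFR4 KD) were compared with the livers of saline-injected mice on chow (Chow), so diet and knockdown both differ between the groups. The comparison takes 8 of the 16 liver RNA-seq libraries of the series, 4 in each group, chosen by their labels. The livers came from male C57BL/6J mice, 6 weeks old when bought and kept on their diet for 12 weeks. The HFD/FGFR4 KD mice received 3 mg/kg of a GalNAc-conjugated siRNA against *Fgfr4* under the skin every 2 weeks, and the Chow mice received saline alone. GalNAc is a sugar that hepatocytes take up, which directs the siRNA to these cells. No group received a control siRNA, so the loss of *Fgfr4* cannot be told apart from receipt of an siRNA conjugate. A further group of 4 libraries, HFD with saline, is on neither side of the comparison. It was used to say which differences from Chow the diet gave without knockdown and, in a second test, whether HFD/FGFR4 KD differed from HFD. Each library is from a separate mouse, as the study describes its liver data, although the labels do not say so.

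FGFR4 is the fibroblast growth factor receptor of hepatocytes. After a meal, bile acids in the ileum release FGF15, which reaches the liver in portal blood, binds FGFR4 with its partner beta-Klotho and represses *Cyp7a1*, the rate-limiting enzyme that turns cholesterol into bile acids. Hepatocytes that turn more cholesterol into bile acids draw on its synthesis, whose enzymes are switched on together by the transcription factor SREBP2. A high-fat diet, for its part, is known to change hepatic genes of fatty acid handling, insulin response, the circadian clock, drug metabolism and male-specific secretion.

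Because the cholesterol enzymes moved together in these livers (below), the sequence upstream of a pair of them is shown. The 250 bases before the RefSeq start of *Hmgcs1*, HMG-CoA synthase, lie at chr13:119690101-119690350 and those of *Nsdhl*, a sterol dehydrogenase, at chrX:72918271-72918520, both on the plus strand of GRCm38.p6 and both upstream of the annotated gene. Capitals mark CCAAT or its reverse complement ATTGG, the core of the NF-Y box that commonly lies beside SREBP sites.
Hmgcs1: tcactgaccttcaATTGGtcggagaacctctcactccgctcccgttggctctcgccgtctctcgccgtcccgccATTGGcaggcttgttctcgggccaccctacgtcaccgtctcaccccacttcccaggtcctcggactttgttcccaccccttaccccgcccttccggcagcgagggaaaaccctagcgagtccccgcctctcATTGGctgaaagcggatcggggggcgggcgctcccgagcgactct
Nsdhl: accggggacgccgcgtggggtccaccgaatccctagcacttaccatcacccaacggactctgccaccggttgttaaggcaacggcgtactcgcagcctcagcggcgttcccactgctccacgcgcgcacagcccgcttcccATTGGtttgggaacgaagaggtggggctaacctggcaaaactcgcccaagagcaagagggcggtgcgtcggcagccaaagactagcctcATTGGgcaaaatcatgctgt
The *Hmgcs1* window holds 3 matches and the *Nsdhl* window 2, all written as ATTGG. Searched on both strands, CCAAT was present in the windows of 14 of the 15 cholesterol synthesis genes with a RefSeq promoter entry, the exception being *Acat2*, acetyl-CoA acetyltransferase, and in 37.5% of the windows of 27025 genes. The search counts letters and not binding.

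Library totals in the compared groups ran from 3445949 to 5598175 estimated counts. Levels are given as CPM, a gene's counts per library of fixed size, after scaling with the trimmed mean of M values (TMM), in the order of replicates 1 to 4. They are not per transcript length, so levels of different genes are not compared. Differences are given as log2 values with their SE from limma-voom. A gene was called when p was under 0.05 and the Benjamini-Hochberg adjusted p was under 0.25, the thresholds of the study. HFD/FGFR4 KD 1 stood apart, and since nothing in the labels allows its diet to be checked, its group rests on the label. Of 3284 genes that differed between the HFD and Chow/FGFR4 KD groups, 30% lay beyond all Chow libraries on the HFD side in this library, against 57.3%, 49.1% and 55.8% in HFD/FGFR4 KD 2, 3 and 4. The main counts and those of the larger gene lists are therefore also given without it. Scaling by library totals instead of TMM moved the median difference of all genes from 0.004 to 0.20, and differences are given relative to the TMM scale.

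*Fgfr4* (chr13:55152640-55168759) was silenced in all 4 knockdown livers. Its level was 27.9, 25.8, 36.3 and 28.9 CPM in Chow and 2.82, 2.43, 5.31 and 4.40 CPM in HFD/FGFR4 KD. HFD/FGFR4 KD 1, at 2.82 CPM, carried the knockdown like the others, and the mean of the knockdown livers was 12.6% of that of Chow. The difference was -2.99 ± 0.27 (SE, n = 4 per group, limma-voom adjusted p = 1.78e-05). Diet alone did not change it by this test (-0.21, adjusted p = 0.41 in HFD against Chow). *Klb*, which encodes beta-Klotho, was not called (0.33 ± 0.15, adjusted p = 0.254), but was called without HFD/FGFR4 KD 1 at 0.41 and, with differences of 0.32 to 0.43, without Chow 2, HFD 3 or Chow/FGFR4 KD 1 or 4.

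Of 11324 genes tested, 1677 (14.8%) were called between HFD/FGFR4 KD and Chow, 853 higher (7.53%) and 824 lower (7.28%). With the adjusted p held under 0.05 instead, 219 genes (1.93%) passed, and in 1099 (9.71%) the 4 libraries of each group did not overlap. Without HFD/FGFR4 KD 1 the count rose to 2309 (20.4%), with 1226 higher (10.8%) and 1083 lower (9.56%), and 1555 of the 1677 genes stayed called in the same direction. The count was 1060 without Chow 1, 1086 without Chow 2, and 925, 961 and 797 without HFD/FGFR4 KD 2, 3 and 4. List counts given below without HFD/FGFR4 KD 1 are to be read against the shares of that fit, 10.8% higher and 9.56% lower.

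Diet without knockdown gave 2939 called genes (26%; 1506 higher, 13.3%, and 1433 lower, 12.7%) in HFD against Chow. Set against these, the genes of the knockdown livers were sorted into classes. The first holds 1117 genes (38% of the diet genes) still called against Chow in the direction of the diet, termed kept. The second holds 895 (30.5%) at chow level, meaning not called, with p of at least 0.05 and a 95% interval of the difference from Chow within 1.5-fold either way. A further 920 (31.3%) were undecided, since their interval reached beyond 1.5-fold or p was under 0.05 without a call, and 7 (0.238%) were called in the opposite direction. The new genes, 553 in all and 33% of the called genes, were called in HFD/FGFR4 KD against Chow and not in HFD against Chow, with 275 higher and 278 lower. Both comparisons use the same Chow libraries, which alone makes their differences alike.

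Without HFD/FGFR4 KD 1 there were 1474 kept, 736 at chow level and 826 new genes. Leaving out HFD/FGFR4 KD 2, 3 or 4 gave 637, 708 or 612 kept genes and 283, 251 or 183 new genes, and leaving out Chow 1 or Chow 2 gave 291 or 316 new genes. With diet genes taken instead from HFD against Chow/FGFR4 KD, which shares no library with the comparison described here, 910 of 3284 genes (27.7%) were kept, 1273 (38.8%) were at chow level and 741 were new, and 838 genes were kept under both definitions. HFD and Chow/FGFR4 KD also differ in knockdown, so the genes of this definition are not of diet alone.

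**Figure D1:**
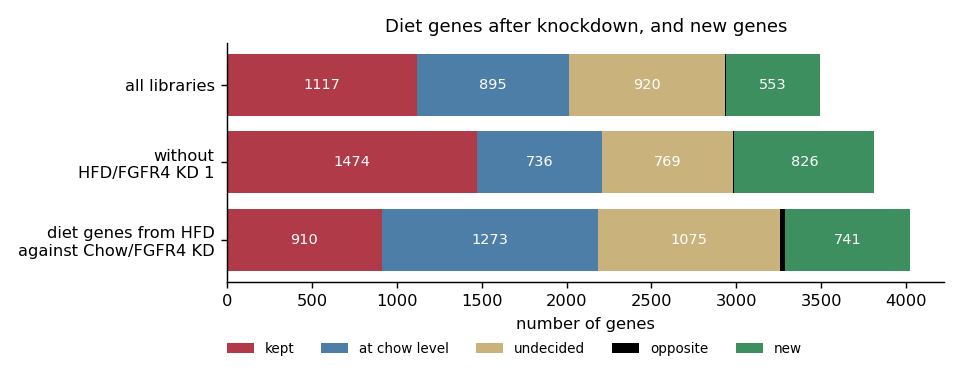
Stacked bars of the number of genes that were kept, at chow level, undecided, opposite and new under each of 3 settings: all libraries, without HFD/FGFR4 KD 1, and with diet genes taken from HFD against Chow/FGFR4 KD. Kept genes number 1117, 1474 and 910, and genes at chow level 895, 736 and 1273.

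A class alone does not show that knockdown moved a gene, so HFD/FGFR4 KD was also tested against HFD. The diet genes were defined with the same HFD libraries, so extreme HFD values alone favour a move back in this test. This holds most for the genes at chow level named below, which were chosen by the smallest p in HFD against Chow. That comparison called 356 genes (3.14%), 170 higher (1.5%) and 186 lower (1.64%). Of the kept genes, 25 had moved back towards chow by this test and 3 had moved further away, against 10 and 5 without HFD/FGFR4 KD 1. Of those at chow level 122 had moved back, and of the undecided 65, against 32 and 18 when that library was left out. Among the new genes 73 were also called against HFD in the same direction, 37 higher and 36 lower, or 60 without HFD/FGFR4 KD 1, and for the remaining new genes a difference from HFD was not shown.

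**Figure D2:**
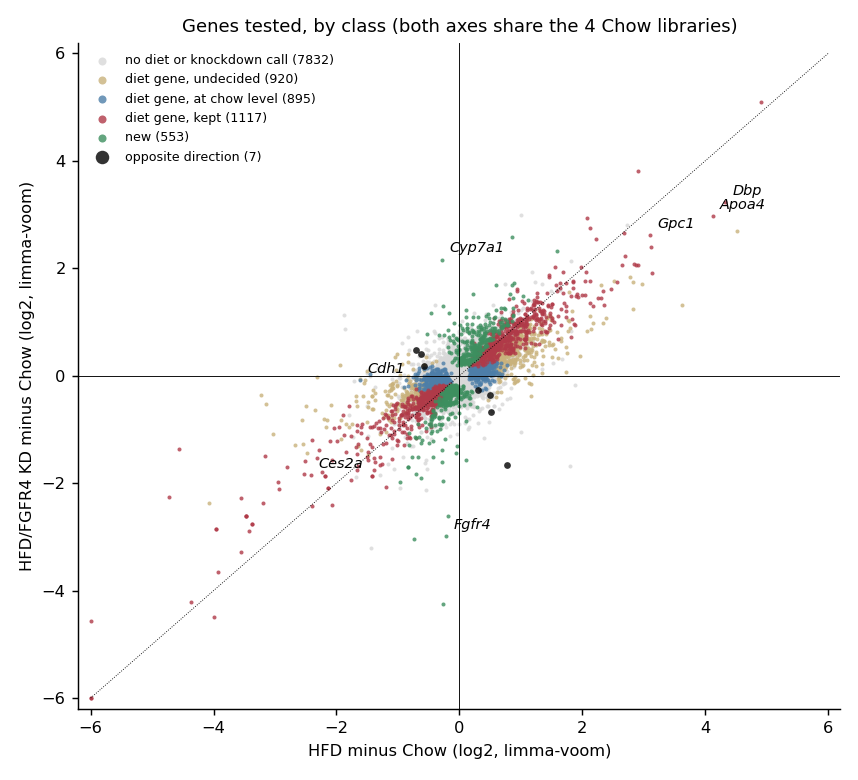
Log2 difference of each tested gene in HFD against Chow (horizontal) and in HFD/FGFR4 KD against Chow (vertical), coloured by class, with values beyond 6 drawn at the edge. Both axes use the same 4 Chow libraries. Kept genes lie along the diagonal, genes at chow level along the horizontal zero line, and *Cyp7a1* and *Fgfr4* along the vertical zero line.

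The kept genes included *Gpc1* (ENSMUSG00000034220, chr1:92831645-92860779), which encodes glypican-1, a heparan sulphate proteoglycan of the cell surface. It read 5.54, 3.65, 5.48 and 4.02 CPM in Chow, and 16.9, 34.1, 43.0 and 28 CPM in HFD/FGFR4 KD. Every knockdown library was above every Chow library, with HFD/FGFR4 KD 1 the lowest of them. The mean was 6.53-fold that of Chow and the difference 2.62 ± 0.34 (limma-voom adjusted p = 0.000762), or 2.87 without HFD/FGFR4 KD 1. HFD livers held 43.9, 34.8, 49.1 and 36.9 CPM, and the difference of HFD/FGFR4 KD from HFD was not called (-0.48, adjusted p = 0.37).

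*Ces2a* (ENSMUSG00000055730, chr8:104734003-104741634) encodes a carboxylesterase of the endoplasmic reticulum that cleaves esters and drugs. Its level was 364, 336, 349 and 380 CPM in Chow and 117, 80.5, 109 and 92.5 CPM in HFD/FGFR4 KD. The groups were far apart and each was narrow. The mean was 27.9% of that of Chow and the difference -1.85 ± 0.16 (adjusted p = 1.78e-05, limma-voom). HFD livers were lower still, at 67.0, 86.9, 47.1 and 73.4 CPM, and *Ces2a* was among the 25 kept genes that had moved back towards chow against HFD (0.56, adjusted p = 0.18).

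**Figure D3:**
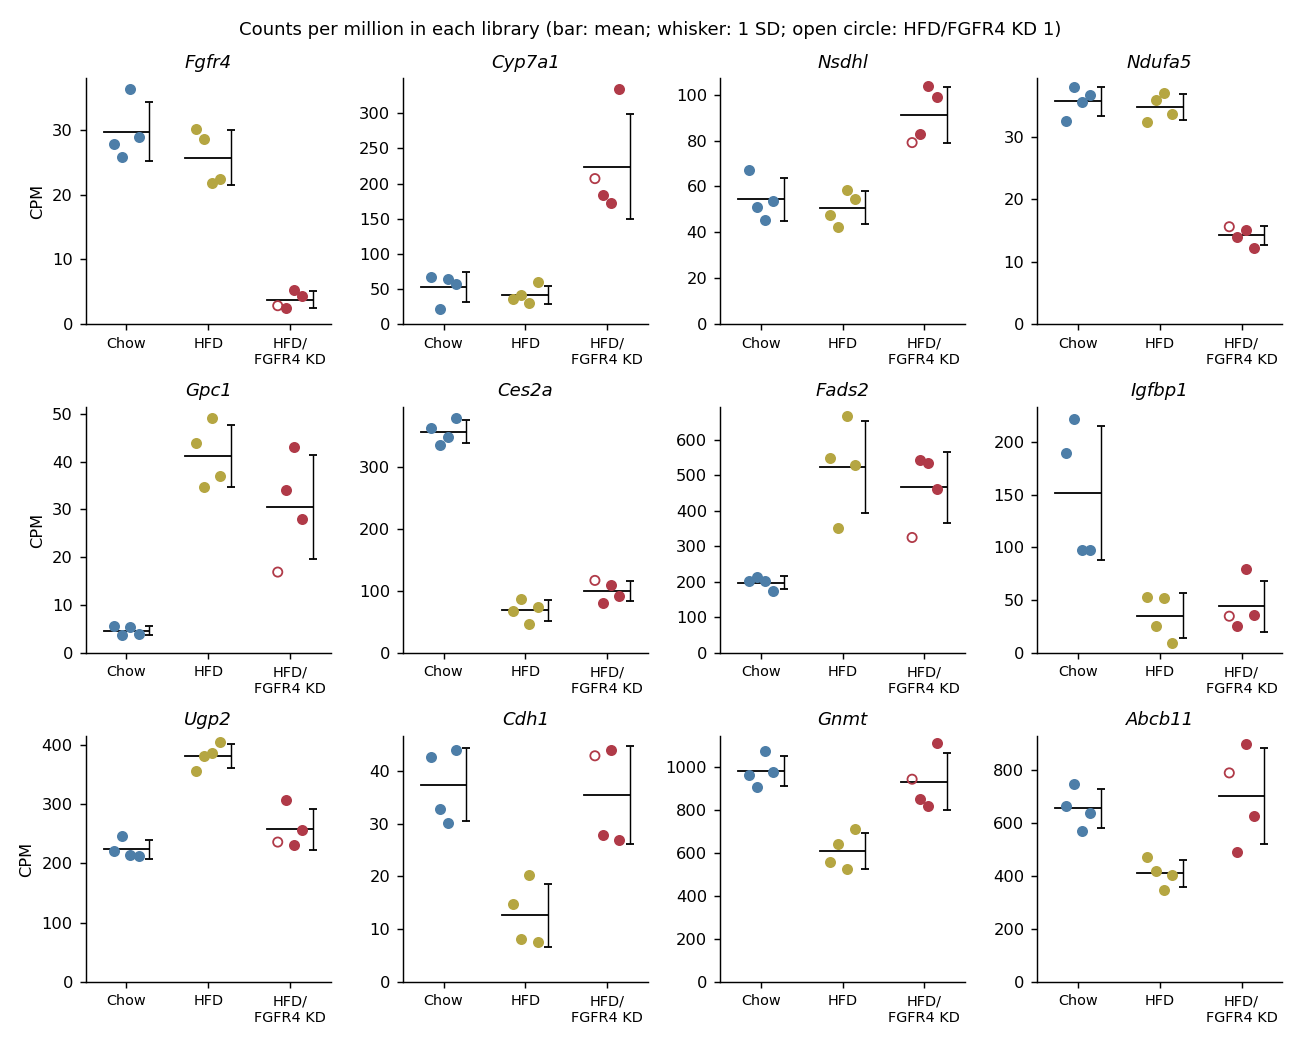
CPM of 12 named genes in every Chow, HFD and HFD/FGFR4 KD library (points), with the group mean (bar) and 1 SD (whisker), and HFD/FGFR4 KD 1 as an open circle. *Gpc1* and *Ces2a* in HFD/FGFR4 KD lie apart from Chow, *Ugp2*, *Cdh1* and *Gnmt* overlap with it, and *Cyp7a1* is between 172 and 334 CPM in HFD/FGFR4 KD against 20.6 to 66.4 CPM in Chow.

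The other genes chosen as kept and higher were *Ttpa*, *Gk*, *Glul*, *Lipg* and *Lect2*. *Ttpa*, the hepatic carrier of vitamin E, read 233, 241, 220 and 219 CPM in Chow and 312, 345, 362 and 350 CPM in HFD/FGFR4 KD. It rose by 0.58 ± 0.07 (adjusted p = 0.000321). *Gk*, the glycerol kinase that returns glycerol to triglyceride synthesis, rose from 65.8 to 77.1 CPM in Chow to 113 to 158 CPM (0.92 ± 0.14, adjusted p = 0.00268). *Lipg*, endothelial lipase, rose from 7.57 to 10.8 CPM to 17.9 to 24.6 CPM (1.08 ± 0.17, adjusted p = 0.00404). *Lect2*, a hepatokine, rose by 1.0 ± 0.16 with the same adjusted p of 0.00404, and *Glul*, glutamine synthetase, is given with the pericentral genes below. None of the 5 was called against HFD, and all stayed called when any library was left out. Their choice by smallest p and no overlap between groups favours the latter.

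Those chosen as kept and lower, besides *Ces2a*, were enzymes of detoxification. *Gstp1*, a glutathione transferase, stood at 1064, 1243, 734 and 841 CPM in Chow and 437, 187, 172 and 174 CPM in HFD/FGFR4 KD (-2.09 ± 0.24, adjusted p = 0.000321). HFD/FGFR4 KD 1 lay between the Chow libraries and the other 3. *Ugt2b5* and *Ugt2b35*, UDP-glucuronosyltransferases that tag steroids and drugs for excretion, fell by 0.81 and 1.02, *Ces1f*, a carboxylesterase, by 0.96, and *Cyp2f2*, a cytochrome P450 of periportal hepatocytes, by 0.81. In *Ugt2b5* 56.4% of the 31-base words of its transcripts are shared with other genes and in *Gstp1* 38.5%, so their split from paralogues is uncertain. *Ugt2b35* and *Ces1f* were 2 of the 3 kept genes that lay further from chow than in HFD, by -0.47 (adjusted p = 0.12) and -0.49 (adjusted p = 0.09).

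The male-biased genes of mouse liver, which follow the pulsatile growth hormone of males, had the lowest median difference of the lists. Of 28 tested, 23 fell and none rose, with a median difference of -1.54, against 7.28% of all genes lower and a median of all genes of 0.004. All 23 were also lower with HFD alone, where the count was 26. *Elovl3*, an elongase of very long fatty acids, read 788, 651, 789 and 861 CPM in Chow and 377, 160, 208 and 255 CPM in HFD/FGFR4 KD. It fell by 1.69 ± 0.26 (adjusted p = 0.00404), and had moved back against HFD by 1.11 (adjusted p = 0.09), where it held 73.1 to 177 CPM. *Ugt2b1* fell by 1.51 and *C8b*, a complement component, by 1.38.

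HFD/FGFR4 KD 1 was chow-like in this list. *Hsd3b5*, a male-specific 3-beta-hydroxysteroid dehydrogenase, stood at 206, 169, 175 and 193 CPM in Chow, and at 166 CPM in HFD/FGFR4 KD 1 but 10.1, 1.49 and 1.56 CPM in the other 3. The summed level of the list was 41249 to 86062 CPM in Chow, 55328 CPM in HFD/FGFR4 KD 1 and 9146 to 19941 CPM in the other knockdown livers. HFD livers held 6494 to 29223 CPM. Without HFD/FGFR4 KD 1, 26 genes fell with a median of -1.89. The count was 15 without Chow 2 and 13 without HFD/FGFR4 KD 3 or 4. None of the 12 growth hormone and STAT5 genes tested was called by limma-voom, edgeR's quasi-likelihood test or DESeq2, and 1 was at an unadjusted p under 0.05 in limma-voom. Leaving out HFD/FGFR4 KD 1, 3 of them were called lower. The major urinary protein genes in the list share most of their sequence and cannot be told apart from each other.

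Genes of Kupffer cells and other macrophages stayed high. Of 23 tested, 18 rose and none fell (7.53% of all genes rose), with a median of 0.90, equal to that of HFD alone. The count was 19 and none without HFD/FGFR4 KD 1, and 12 and none without HFD/FGFR4 KD 4. *Cd5l*, a secreted macrophage protein, stood at 14.8, 17.5, 16.2 and 15.4 CPM in Chow and 26.4, 31, 32 and 47.9 CPM in HFD/FGFR4 KD (1.06 ± 0.23, adjusted p = 0.0246). The groups did not overlap, as in 14 genes of the list against 9.71% of all genes. *Cybb*, the NADPH oxidase of phagocytes, rose from 1.03 to 4.97 CPM to 5.85 to 10.4 CPM (1.75 ± 0.35), *C1qa* and *C1qc* of the complement C1q complex rose by 0.93 and 0.83, and *Csf1r*, the receptor of the macrophage growth factor, by 0.72. *Timd4*, a receptor of resident Kupffer cells, was a new gene at 1.26 ± 0.37 (adjusted p = 0.0825), but did not differ from HFD by the test (0.58, adjusted p = 0.51). Summed levels were 254 to 270 CPM in Chow, 325 CPM in HFD/FGFR4 KD 1 and 407 to 492 CPM in the others. In bulk liver, more macrophages and more RNA per macrophage cannot be told apart.

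Of 35 interferon-stimulated genes 6 rose and 1 fell, against 15 higher with HFD alone, and 12 were undecided. The shares of all genes were 7.53% higher and 7.28% lower. The count of 7 was 8 without HFD/FGFR4 KD 1 and dropped to 4 without Chow 1 or Chow 2, to 3 without Chow 3 and to 2 without HFD/FGFR4 KD 4. *Tap1*, a peptide transporter of antigen presentation, rose by 0.72 (adjusted p = 0.0636), and *Bst2* fell by 0.51 (adjusted p = 0.0144), both in all leave-outs. Of 6 genes of MHC class II presentation 4 rose, but 0 did without Chow 2 or without HFD/FGFR4 KD 4, 1 without HFD/FGFR4 KD 3 and 2 without Chow 1. *Ighm*, the immunoglobulin heavy chain of B cells, rose by 1.83 ± 0.50 (adjusted p = 0.0677).

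Clock genes kept part of the shift given by the diet. Of 12 genes of the PAR-bZIP, *Per* and Rev-erb arm 6 rose, with a median of 0.46, where 7.53% of all genes rose. In the *Clock*, *Cry* and ROR arm 4 of 11 fell, with a median of -0.38, where 7.28% of all genes fell. Without HFD/FGFR4 KD 1, 7 of the first rose, and of the second 4 fell and 2 rose. *Dbp*, a PAR-bZIP factor that oscillates strongly in liver, read 2.67, 8.35, 1.01 and 0.71 CPM in Chow and 13.7, 34.5, 16.4 and 19.2 CPM in HFD/FGFR4 KD. All knockdown libraries were higher (3.23 ± 0.79, adjusted p = 0.0446), yet below most HFD libraries, which held 21.2 to 77.9 CPM (-1.09 against HFD, adjusted p = 0.25). *Per3* rose by 2.06, *Tef* by 0.86, while *Clock* fell by 0.55 and *Rora* by 0.38. *Clock* had also moved back against HFD (0.53, adjusted p = 0.18). The count of 6 was 3 without HFD/FGFR4 KD 2 or 3, and the count of 4 was 2 without HFD/FGFR4 KD 3. Times of day at collection were not used here, so a shift of the clock and a shift of collection cannot be told apart.

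Of 12 carboxylesterases tested, 7 fell (*Ces2a*, *Ces1f*, *Ces1d*, *Ces1e*, *Ces2c*, *Ces3a* and *Ces3b*) and none rose, with a median of -0.70, against 7.28% of all genes lower, and the 7 were lower in each leave-out. In each of the 7 the libraries of the groups did not overlap, as in 9.71% of all genes. *Ces1d*, a triglyceride hydrolase, read 550, 571, 844 and 738 CPM in Chow and 250, 386, 291 and 338 CPM in HFD/FGFR4 KD, a fall of 1.09 ± 0.20 (adjusted p = 0.0122). Of 24 cytochrome P450 genes of families 1 to 3, 7 fell and 2 rose, or 6 and 3 without HFD/FGFR4 KD 1, where 15 were lower and 4 higher with HFD alone. *Cyp3a11*, the main drug-metabolising P450 of mouse liver, read 4265, 4453, 4784 and 4135 CPM in Chow and 533, 967, 2240 and 1367 CPM in HFD/FGFR4 KD. Here HFD/FGFR4 KD 1 was the lowest of its group, and the fall was 1.98 ± 0.41 (adjusted p = 0.0215). *Cyp2c29* fell by 0.90 and had moved back against HFD by 0.68 (adjusted p = 0.10), *Cyp1a2* fell by 0.92, and *Cyp2c38* rose by 1.63. The P450 count of 9 was 5 without Chow 2. Of 31 UGT, GST and sulfotransferase genes 7 fell and 5 rose, against 7.28% of all genes lower and 7.53% higher. When HFD/FGFR4 KD 1 was left out 7 fell and 4 rose, against 9.56% and 10.8% of all genes.

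Of 18 lipogenic and desaturation genes 5 rose and 1 fell, and 12 were not called, where 7.53% of all genes rose and 7.28% fell. Leaving out HFD/FGFR4 KD 1, 7 rose and 1 fell. *Fads2*, the delta-6 desaturase, read 201, 214, 203 and 173 CPM in Chow and 325, 544, 534 and 461 CPM in HFD/FGFR4 KD. The mean was 2.35-fold that of Chow (1.21 ± 0.20, adjusted p = 0.00476) and the HFD libraries, at 352 to 667 CPM, covered the same range. *Fads1*, the delta-5 desaturase, rose by 0.83, and the elongases *Elovl5* and *Elovl2* by 1.35 and 0.60. *Elovl3* is the member that fell. *Fasn*, fatty acid synthase, was not called (0.67 ± 0.45), and ranged from 217 to 384 CPM in Chow and from 217 to 648 CPM in HFD/FGFR4 KD. It was called without HFD/FGFR4 KD 1, the library at 217 CPM, with a difference of 1.04. *Scd1*, stearoyl-CoA desaturase, was not called either (-0.05, 95% interval from -1.37 to 1.27).

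Among apolipoprotein and lipoprotein genes 4 of 19 rose and 2 fell, against 7.53% of all genes higher and 7.28% lower. Without HFD/FGFR4 KD 1, 5 rose and 2 fell, against 10.8% and 9.56% of all genes. *Apoa4*, carried on triglyceride-rich particles, read 66.8, 61.3, 71.8 and 70.5 CPM in Chow and 172, 1156, 603 and 652 CPM in HFD/FGFR4 KD, with no overlap and the smallest rise in HFD/FGFR4 KD 1 (2.97 ± 0.53, adjusted p = 0.00909). It shares 64.5% of its 31-base words with other annotated genes. *Apom*, which carries sphingosine-1-phosphate, fell by 0.92 ± 0.14 (adjusted p = 0.00272). *Cd36*, the fatty acid translocase, rose from 9.65 to 65.3 CPM to 44.2 to 131 CPM (1.62 ± 0.49, adjusted p = 0.0923), and the ranges overlapped. *Abca1*, the cholesterol exporter that loads nascent HDL, fell by 0.77 and was a new gene, though not called against HFD (-0.35, adjusted p = 0.61).

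Insulin-responsive genes were split between the classes. *Igfbp1*, which insulin represses, read 189, 222, 97.6 and 97.1 CPM in Chow and 34.7, 25.2, 79.7 and 36.3 CPM in HFD/FGFR4 KD. The groups did not overlap and the difference was -1.79 ± 0.52 (adjusted p = 0.0818). *Pck1*, the gluconeogenic carboxykinase, read 2058, 2367, 1777 and 2257 CPM in Chow and 1513, 1267, 1795 and 1126 CPM in HFD/FGFR4 KD. It fell by 0.59 ± 0.16 (adjusted p = 0.069), and HFD/FGFR4 KD 3 alone reached the range of Chow. Over the 26 genes of insulin and glucose metabolism 4 rose and 4 fell, of which 7 were kept, against 10 and 8 with HFD alone. The 4 and 4 compare with 7.53% and 7.28% of all genes, and became 6 and 6 without HFD/FGFR4 KD 1. The count of 8 was 5 without Chow 2 or HFD/FGFR4 KD 2 and 4 without HFD/FGFR4 KD 4.

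Pericentral hepatocyte genes, which lie near the central vein, were higher in 10 of 19 and lower in 1, with a median of 0.67. Of all genes 7.53% were higher. Without HFD/FGFR4 KD 1 the counts were 11 and 1, against 10.8% of all genes higher. *Glul* read 688, 599, 741 and 664 CPM in Chow and 905, 1132, 1050 and 1192 CPM in HFD/FGFR4 KD (0.67 ± 0.10, adjusted p = 0.0034). *Gulo*, of the vitamin C pathway, rose by 0.71, *Slc13a3*, a dicarboxylate carrier, by 1.31, and *Oat*, ornithine aminotransferase, by 0.94 as a new gene. *Cyp1a2* is the member that fell. The count of 11 was 7 without Chow 1 or HFD/FGFR4 KD 4. Of 22 periportal and urea cycle genes 4 fell and none rose, where 7.28% of all genes fell, among them *Arg1* (-0.47 ± 0.08, adjusted p = 0.00559), while 7 of the genes that HFD alone had changed, 12 lower and 1 higher, were at chow level. Leaving out HFD/FGFR4 KD 1, the 4 became 8 lower and 1 higher, and without Chow/FGFR4 KD 4 the count was 7.

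Of 11 cell cycle genes tested 6 rose (7.53% of all genes rose) and 5 were not called, while 8 more of the list were too low to test. The count of 6 was 7 without HFD/FGFR4 KD 1 and 3 without Chow 4 or HFD/FGFR4 KD 3. *Mki67*, a marker of dividing cells, read 1.44, 3.39, 1.22 and 1.42 CPM in Chow and 3.90, 10.6, 7.97 and 5.70 CPM in HFD/FGFR4 KD (1.94 ± 0.49, adjusted p = 0.0530). *Ccnd1*, cyclin D1, rose from 6.49 to 9.91 CPM to 17.3 to 53.5 CPM (1.88 ± 0.43, adjusted p = 0.0343). All 6 of the genes chosen as strong markers of the diet were kept, and were called against Chow in each leave-out. They were chosen with earlier results of these data known, so this outcome is not independent support. Of all diet genes 38% were kept. *Serpina6*, corticosteroid-binding globulin, and *Slc17a4*, a phosphate and urate carrier, rose by 0.81 and 0.97 and *Slco2a1*, a prostaglandin carrier, fell by 0.96. *Serpina6* and *Slco2a1* had moved back against HFD by -0.62 (adjusted p = 0.12) and 1.0 (adjusted p = 0.0577).

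The genes at chow level were led, among those raised by diet, by *Ugp2*, the UDP-glucose pyrophosphorylase that feeds glycogen synthesis. It read 221, 247, 214 and 213 CPM in Chow, 236, 307, 231 and 257 CPM in HFD/FGFR4 KD, and 356, 381, 387 and 405 CPM in HFD. The knockdown livers overlapped with Chow and not with HFD. The difference from Chow was 0.20 with a 95% interval from -0.04 to 0.44, and that from HFD was -0.58 (adjusted p = 0.0453). Without Chow/FGFR4 KD 4, a library of neither group, the difference of 0.20 from Chow was called (adjusted p = 0.248), as was that of *St3gal3*. *Got2*, mitochondrial aspartate aminotransferase, stood 0.08 from Chow (interval -0.06 to 0.23), *Cd81*, a tetraspanin, 0.04 (interval -0.19 to 0.26), and *Cryz*, a quinone oxidoreductase, 0.23 (interval -0.07 to 0.52), each called against HFD. *St3gal3*, a sialyltransferase, was called against HFD too, but its 4 knockdown libraries, at 53.4 to 57.8 CPM, all lay above the 45.9 to 51.5 CPM of Chow. *Ppt1*, a lysosomal thioesterase, at 0.26 from Chow (interval -0.01 to 0.53), was not. *Cryz* and *Ppt1* were called against Chow without HFD/FGFR4 KD 1, at 0.31 and 0.33, and without Chow 3, at 0.33 and 0.36.

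Of those lowered by diet, *Cdh1*, E-cadherin of epithelial junctions, read 42.6, 32.8, 30.2 and 44.0 CPM in Chow, 42.9, 27.9, 44.0 and 26.9 CPM in HFD/FGFR4 KD, and 14.7, 8.17, 20.2 and 7.47 CPM in HFD. HFD was below all others, and knockdown livers spread across the range of Chow. The difference from Chow was -0.08 (interval -0.57 to 0.41) and that from HFD 1.54 (adjusted p = 0.018). *Gnmt*, glycine N-methyltransferase, which disposes of excess S-adenosylmethionine, read 964, 910, 1078 and 980 CPM in Chow, 945, 854, 822 and 1116 CPM in HFD/FGFR4 KD, and 557, 643, 524 and 711 CPM in HFD. It lay -0.08 from Chow (interval -0.34 to 0.18) and 0.62 above HFD (adjusted p = 0.0486). *Abca2*, *Ubxn7* and *Serpina1a*, chosen by the same rule, were 0.08 to 0.22 below Chow on the log2 scale and each called higher than HFD, and *Serpina1a*, which shares 65.2% of its words with its paralogues, was called lower than Chow without HFD/FGFR4 KD 1 or HFD 2.

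*Abcb11*, the bile salt export pump, followed the same pattern. It read 666, 749, 572 and 638 CPM in Chow, 790, 490, 901 and 628 CPM in HFD/FGFR4 KD, and 471, 419, 347 and 403 CPM in HFD. The knockdown values spread beyond Chow on both sides and lay above every HFD value. The difference from Chow was 0.06 (interval -0.25 to 0.38) and from HFD 0.74 (adjusted p = 0.0453). *Abcb4*, the phospholipid floppase of bile, was kept instead (0.44 ± 0.10, adjusted p = 0.0385), and *Slc10a1*, which takes bile acids up from blood, was new and lower (-0.45 ± 0.13, adjusted p = 0.08).

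Fatty acid oxidation was split between the classes. Of 18 mitochondrial genes of this pathway 10 were higher with HFD alone. After knockdown 5 diet genes were kept, 5 were at chow level, 1 was opposite and 2 genes were new. The list as a whole had 4 higher and 4 lower, where 7.53% of all genes were higher and 7.28% lower. Without HFD/FGFR4 KD 1 it also had 4 and 4, against 10.8% and 9.56% of all genes. *Cpt1a*, the entry step of fatty acids into mitochondria, was kept at 367, 478, 388 and 409 CPM against 259, 333, 274 and 268 CPM in Chow (0.53 ± 0.13, adjusted p = 0.0461). *Hadh* and *Acadm* were kept at 0.51 and 0.31, and *Cpt2* fell by 0.30. *Hadha*, the alpha subunit of the trifunctional protein, was at chow level at 264, 319, 290 and 290 CPM against 272, 299, 325 and 290 CPM in Chow, and lower than in HFD (-0.30, adjusted p = 0.24). *Decr1* and *Eci1*, which handle unsaturated fatty acids, were at chow level and lower than HFD by -0.35 and -0.39. The count of 8 called genes was 4 without Chow 2, HFD/FGFR4 KD 3 or HFD/FGFR4 KD 4.

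PPAR-alpha is the nuclear receptor that switches on fatty acid oxidation. Of 26 of its targets and peroxisomal genes, 10 were higher with HFD alone and 1 after knockdown, where 8 were lower (7.53% and 7.28% of all genes). Called lower than HFD were 7 of them, and 1.64% of all genes. Without HFD/FGFR4 KD 1, 4 were higher and 7 lower than Chow, against shares of all genes of 10.8% and 9.56% in that fit. *Decr2*, a peroxisomal reductase of unsaturated fatty acids, read 134, 150, 180 and 139 CPM in Chow, 133, 172, 168 and 136 CPM in HFD/FGFR4 KD, and 215, 202, 222 and 208 CPM in HFD. Knockdown livers overlapped with Chow and lay below every HFD library. It was at chow level (0.02, interval -0.24 to 0.28) and lower than HFD (-0.48, adjusted p = 0.12), as was *Pex11a*, a peroxisome division factor, which was called lower than Chow without HFD/FGFR4 KD 2 (-0.41). *Angptl4*, an inhibitor of lipoprotein lipase, fell by 0.77 and was kept. *Tspo*, a transporter of the outer mitochondrial membrane, was among the genes chosen as new and lower, at 30.8, 32.3, 35.9 and 31.2 CPM in Chow and 25.1, 21.5, 23.7 and 22.5 CPM in HFD/FGFR4 KD (-0.48 ± 0.10, adjusted p = 0.0178), and was lower than HFD too (-0.45, adjusted p = 0.0608). The count of 9 was 5 without HFD/FGFR4 KD 2 or 4.

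**Figure D4:**
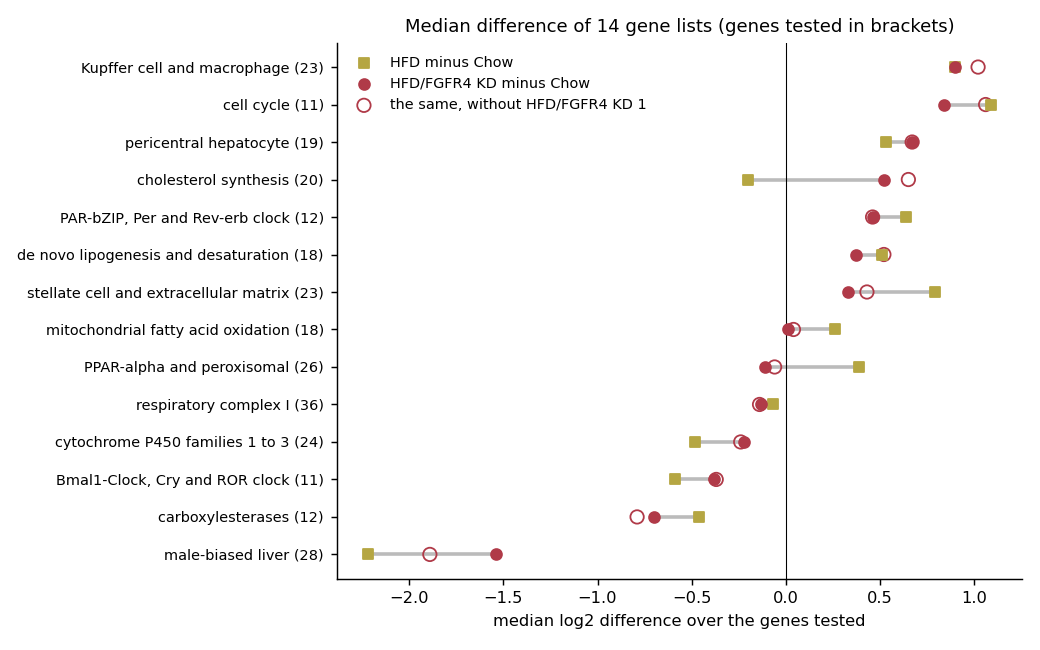
Median log2 difference of 14 gene lists in HFD against Chow, in HFD/FGFR4 KD against Chow, and in the latter without HFD/FGFR4 KD 1. The male-biased list is lowest at -2.22, -1.54 and -1.89, and cholesterol synthesis goes from -0.20 with HFD to 0.52 with knockdown. With counts scaled by library totals, the knockdown medians of complex I and of PPAR-alpha genes turn from -0.13 to 0.07 and from -0.11 to 0.10.

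Some lists remained undecided. Of 23 stellate cell and extracellular matrix genes, which rise in fibrosis, 14 were higher with HFD alone, and all 14 were undecided after knockdown. No gene of the list was called, 0 being at an unadjusted p under 0.05, whereas edgeR's quasi-likelihood test called 1 and DESeq2 called 2. *Col3a1*, a fibrillar collagen, read 13.7, 10.4, 12.0 and 12.5 CPM in Chow and 11.5, 43.8, 22.7 and 23.1 CPM in HFD/FGFR4 KD. HFD/FGFR4 KD 1 was within Chow and the other 3 above it, and the interval of the difference ran from -0.24 to 2.01 (1.21 and called without HFD/FGFR4 KD 1). Without HFD/FGFR4 KD 1, 5 genes of the list were higher and none lower, and without Chow 3 or Chow 4, 1. *Igfbp2*, an insulin-like growth factor binding protein, was undecided against Chow (-0.14, interval -0.70 to 0.43), with 99.4 to 248 CPM in HFD/FGFR4 KD against 132 to 233 CPM in Chow. It was above HFD, at 40.2 to 86.0 CPM, by 1.42 (adjusted p = 0.0453).

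Of the genes new to the knockdown livers *Cyp7a1* (ENSMUSG00000028240, chr4:6265612-6275633) rose most among those chosen. It read 66.4, 20.6, 64.1 and 57.3 CPM in Chow, and 207, 183, 172 and 334 CPM in HFD/FGFR4 KD. Every knockdown library lay above every Chow library, HFD/FGFR4 KD 1 included. The mean was 4.30-fold that of Chow and the difference 2.16 ± 0.33 (adjusted p = 0.00372), or 2.18 without HFD/FGFR4 KD 1. Diet alone left it uncalled at 34.9, 41.7, 29.9 and 59.2 CPM (-0.28, adjusted p = 0.65). The difference of HFD/FGFR4 KD from HFD was 2.45 (adjusted p = 0.00276).

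*Akr1d1*, the 5-beta-reductase downstream of *Cyp7a1* in bile acid synthesis, read 148, 110, 127 and 131 CPM in Chow and 175, 175, 193 and 255 CPM in HFD/FGFR4 KD. It rose by 0.62 ± 0.14 (adjusted p = 0.0273) and was also called against HFD (0.42, adjusted p = 0.23). These were the only members of the 16 bile acid synthesis genes tested that rose, while *Cyp7b1*, *Cyp2c70* and *Acox2* fell, against 7.53% of all genes higher and 7.28% lower. *Cyp2c70*, which makes the muricholic acids of mice, fell by 1.28 ± 0.35 (adjusted p = 0.0657) and was kept. *Cyp7b1*, of the alternative pathway and also on the male-biased list, read 336 CPM in HFD/FGFR4 KD 1 and 48.1 to 71.3 CPM in the other 3, against 170 to 478 CPM in Chow, and its call was lost without HFD/FGFR4 KD 3 or 4 (adjusted p up to 0.27). *Acox2*, which shortens the side chain, fell by 0.32, a call lost without Chow 1, Chow 3 or HFD/FGFR4 KD 2, 3 or 4 (adjusted p up to 0.36). *Cyp8b1*, which directs the pathway to cholic acid, was not called (0.09, interval -0.38 to 0.56). Nor was *Nr0b2*, the repressor SHP (-0.29, interval -1.06 to 0.48). The count of 5 was 7, with 2 higher and 5 lower, without HFD/FGFR4 KD 1, and 3 without HFD/FGFR4 KD 3 or 4.

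Cholesterol synthesis genes rose after knockdown. Of the 20 genes 13 rose and none fell, with a median of 0.52, against 7.53% of all genes higher. With HFD alone 1 was higher and 6 were lower, with a median of -0.20. Against HFD 14 were called higher, where 1.5% of all genes were. By class 9 were new, 3 opposite, 1 kept, 2 at chow level and 1 undecided.

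*Hmgcs1*, whose upstream sequence is printed above, read 395, 167, 327 and 354 CPM in Chow and 382, 660, 846 and 765 CPM in HFD/FGFR4 KD. The value of HFD/FGFR4 KD 1 lay among the Chow libraries and the other 3 above them all. The difference was 1.10 ± 0.28 (adjusted p = 0.0547), or 1.35 without HFD/FGFR4 KD 1. *Nsdhl* read 67.2, 51.1, 45.4 and 53.7 CPM in Chow and 79.1, 82.8, 104 and 99.0 CPM in HFD/FGFR4 KD. All 4 knockdown libraries were higher, and the rise was 0.75 ± 0.13 (adjusted p = 0.00878) against Chow and 0.85 against HFD (adjusted p = 0.00995). *Msmo1*, the sterol C4 monooxygenase, read 197, 93.1, 123 and 152 CPM in Chow and 176, 239, 249 and 273 CPM in HFD/FGFR4 KD (0.76 ± 0.21, adjusted p = 0.0671). *Fdft1*, squalene synthase, rose by 0.66 and *Hsd17b7* by 0.50.

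These 5 genes were called in each leave-out, and the remaining 8 were not. The count was 5 without Chow 2, HFD/FGFR4 KD 3 or HFD/FGFR4 KD 4, 6 without HFD/FGFR4 KD 2, 8 without Chow 3 and 17 without HFD/FGFR4 KD 1. The summed level of the pathway was 2199 to 3256 CPM in Chow, 2992 CPM in HFD/FGFR4 KD 1 and 4250 to 4948 CPM in the other knockdown livers. *Srebf2*, which encodes SREBP2, rose by 0.47, a call lost without Chow 2 or HFD/FGFR4 KD 4 (adjusted p up to 0.26).

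**Figure D5:**
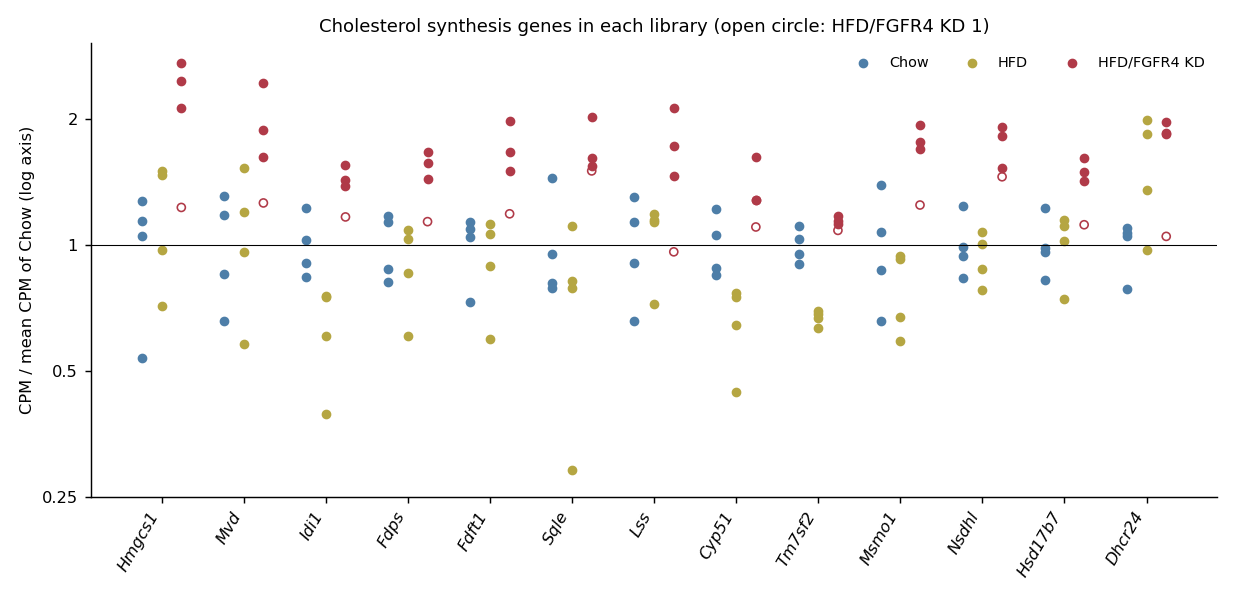
CPM of the 13 cholesterol synthesis genes called higher in HFD/FGFR4 KD against Chow, in each Chow, HFD and HFD/FGFR4 KD library, divided by the mean CPM of the 4 Chow libraries (log axis), with HFD/FGFR4 KD 1 as an open circle. HFD/FGFR4 KD 2, 3 and 4 lie above 1 in all 13 genes, and HFD/FGFR4 KD 1 is the lowest of its group, as for *Hmgcs1* at 382 CPM against a Chow mean of 311 CPM.

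Of the genes chosen as new and higher, *Crls1*, cardiolipin synthase of mitochondria, read 24.8, 23.2, 26.6 and 23.4 CPM in Chow and 35.8, 37.0, 46.3 and 36.8 CPM in HFD/FGFR4 KD. It rose by 0.66 ± 0.11 (adjusted p = 0.00476) and was higher than HFD by 0.47 (adjusted p = 0.0682). *Ctsl*, a lysosomal protease, rose by 0.40 and *Mug2*, a murinoglobulin protease inhibitor, by 0.65, and each was called against HFD as well. In *Mug2* 65.1% of the words are shared with other genes.

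Of those new and lower, *Ndufa5*, a subunit of respiratory complex I, fell to a similar level in every knockdown library. It read 32.6, 38.1, 35.7 and 36.7 CPM in Chow, 32.4, 36.0, 37.1 and 33.7 CPM in HFD, and 15.6, 13.9, 15.1 and 12.2 CPM in HFD/FGFR4 KD. Chow and HFD overlapped and the knockdown group was at 39.7% of Chow. The fall was 1.31 ± 0.13 (adjusted p = 6.18e-05) against Chow, and 1.28 against HFD (adjusted p = 9.06e-05). At 15.6 CPM, HFD/FGFR4 KD 1 did not stand apart.

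The other subunits of complex I had smaller differences. Of 36 tested 12 fell, against 7.28% of all genes, and none rose, with a median of -0.13 that becomes 0.07 when counts are scaled by library totals. All 12 were new, but only 2 genes of the list were called lower than HFD (1.64% of all genes), *Ndufa5* and *Ndufa3*. For the other 10 a difference from HFD was not shown. The median of the list was -0.08 against HFD, and -0.07 in HFD against Chow. *Ndufa5* and *Ndufa3* (-0.36 ± 0.11, adjusted p = 0.11), which was also lower than HFD (-0.44, adjusted p = 0.10), were called in each leave-out. The other 10 fell by 0.19 to 0.37, and the count was 11 without HFD/FGFR4 KD 1, 6 without Chow 3 and 5, 4 or 3 without HFD/FGFR4 KD 2, 3 or 4.

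*Raet1e*, a stress ligand of the NKG2D receptor, read 5.57, 3.92, 8.51 and 6.79 CPM in Chow and 0.688 and 1.19 CPM in HFD/FGFR4 KD 1 and 2, with no read in HFD/FGFR4 KD 3 and 4. It was called lower than Chow (adjusted p = 0.00476) and lower than HFD (adjusted p = 0.018), and it shares 55.5% of its words with its paralogues. *Morf4l1*, a chromatin protein, read 120, 121, 120 and 123 CPM in Chow and 83.8, 60.8, 90.1 and 62.0 CPM in HFD/FGFR4 KD, a fall of 0.72 ± 0.11 (adjusted p = 0.00404), with 0.57 against HFD (adjusted p = 0.0453). *Abhd6*, a monoacylglycerol lipase, fell by 0.80 ± 0.15 (adjusted p = 0.0139).

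The 7 genes called opposite to the diet are named after their values were seen. Those lowered by diet and above Chow after knockdown were all cholesterol synthesis enzymes, *Idi1*, *Cyp51* and *Tm7sf2*. *Tm7sf2*, a sterol reductase, read 97.7, 92.1, 114 and 106 CPM in Chow, 64.7, 68.5, 70.1 and 71.2 CPM in HFD, and 111, 115, 117 and 120 CPM in HFD/FGFR4 KD. It was 0.18 above Chow (adjusted p = 0.24) and 0.75 above HFD (adjusted p = 9.06e-05). *Idi1*, isopentenyl diphosphate isomerase, was 0.48 above Chow and 1.18 above HFD, and *Cyp51*, lanosterol demethylase, 0.40 and 1.03. Each call against Chow was lost without Chow 2 and without HFD/FGFR4 KD 2, 3 or 4, that of *Idi1* and *Cyp51* also without Chow 3 and that of *Tm7sf2* without Chow 1 or 4, with an adjusted p of up to 0.47 over the 3 genes.

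Those raised by diet and below Chow after knockdown were *Abcg8*, *Hadhb*, *Raet1d* and *Ppp2r1b*. *Abcg8*, a subunit of the sterol exporter of bile, read 36.9, 48, 57 and 38.8 CPM in Chow, 55.8, 74.1, 62.2 and 62.6 CPM in HFD, and 30.6, 24.6, 34.9 and 21.8 CPM in HFD/FGFR4 KD. The knockdown livers lay below both, by -0.67 against Chow (adjusted p = 0.17) and -1.18 against HFD (adjusted p = 0.0496). *Hadhb*, the beta subunit of the trifunctional protein, lay -0.26 from Chow and -0.55 from HFD (adjusted p = 0.018). *Raet1d*, a paralogue of *Raet1e* with 67.1% shared words, lay -1.67 from Chow and *Ppp2r1b*, a scaffold subunit of protein phosphatase 2A, -0.35. The calls against Chow were lost without HFD/FGFR4 KD 3 in *Raet1d* and *Hadhb*, without HFD/FGFR4 KD 4 in *Hadhb* and *Abcg8*, without Chow 2 in both of these, without Chow 3 or HFD/FGFR4 KD 2 in *Abcg8*, and without Chow 1, 3 or 4 or any knockdown library in *Ppp2r1b* (adjusted p up to 0.44).

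The lists not yet described are read against 14.8% of all genes called. Of 12 FGF receptor and FXR regulator genes *Fgfr4* fell and *Mafg*, a small Maf factor, rose by 0.50 (adjusted p = 0.0167). Of 12 ERK feedback genes 1 rose, *Ccnd1*, which is also on the cell cycle list. In these lists 6 and 3 were called without HFD/FGFR4 KD 1, 5 were called in the FGF receptor list without Chow/FGFR4 KD 4, and 5 or 2 in the ERK list without Chow 3 or HFD 3. Of 21 lipid droplet genes 5 rose and 2 fell (4 called without Chow 1 and 8 without HFD/FGFR4 KD 1). Among those called, *Dgat1*, which makes triglyceride, differed by 0.44, and *Abhd5*, the co-activator of its lipase, fell by 0.60. Of 23 unfolded protein response genes 2 fell, *Ern1*, the IRE1 sensor, by 0.57 and *Ppp1r15a* by 0.62, a call lost when any of the compared libraries but Chow 1 was left out. Of 23 acute phase genes 1 rose and 1 fell, and 12 were called without Chow/FGFR4 KD 4, 6 without HFD/FGFR4 KD 1, 5 without Chow 3 and 1 without HFD/FGFR4 KD 2 or 4. *Serpina3k*, a serpin, was the member that fell (-1.42 ± 0.36, adjusted p = 0.0550). Of 15 NRF2 target genes *Gclm*, of glutathione synthesis, rose by 0.32, and 4 were called without HFD/FGFR4 KD 1. Of 24 female-biased genes 20 were too low to test, and of the 4 tested 1 rose and 1 fell. Without HFD/FGFR4 KD 1, 3 were higher and 1 lower, and without HFD/FGFR4 KD 2, 1 was called. The member that rose was *Cyp17a1*, a steroid hydroxylase, from 2.87 to 4.26 CPM to 17.3 to 28.1 CPM (2.66 ± 0.61, adjusted p = 0.0337).

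Markers of the labelled tissue were present in all libraries. Called counts of the marker lists are read against 14.8% of all genes called, or 20.4% without HFD/FGFR4 KD 1. Of 13 hepatocyte genes listed, the 12 found in the data summed to 86539 to 93101 CPM in Chow and 85883 to 101723 CPM in HFD/FGFR4 KD. Of these 12, all tested, 1 fell (*Ttr*, transthyretin, by 0.36), or 2 without Chow 3, HFD 2 or Chow/FGFR4 KD 4 and 4 without HFD/FGFR4 KD 1. The *Mpo*, *Ngp* and *Retnlg* genes of neutrophils were at 0 in all 8 libraries, and the neutrophil list summed to at most 4.67 CPM. Of 16 endothelial genes 1 rose and 2 fell, or 1 in all without Chow 1, 2 or 4 or HFD/FGFR4 KD 2, and 0 without HFD/FGFR4 KD 3. Of 5 erythrocyte genes tested 1 fell, 3 were called without Chow 3 or Chow/FGFR4 KD 1 or 4, 0 without HFD/FGFR4 KD 4, and 4 rose and 1 fell without HFD/FGFR4 KD 1, with summed levels of 273 to 525 CPM in Chow, 278 CPM in HFD/FGFR4 KD 1 and 533 to 985 CPM in the other knockdown livers. The part of blood content or of macrophage number in the results above was not tested.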

How the data were processed

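Total RNA from 16 livers, 1 library per mouse as the study describes it and 4 in each of 4 groups, was sequenced as mRNA libraries. The values deposited by the authors are estimated counts per gene, made with fastp and kallisto against GRCm38 (per the labels; versions and transcriptome release are not given in the sources used here) and summed to genes with tximport. Of 52143 genes, 27199 were at 0 in every library. Of all the gene values of a library, zeros included, 7.85 to 11.1% were not whole numbers, since reads shared between genes are split by estimation. Library totals ran from 3445949 to 5976449, so that 3 counts, taken as the floor, equal at most 0.871 CPM in the compared groups.

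Groups came from the labels. Genes with more than 4 libraries under 1 CPM were left out, counts were scaled by TMM in edgeR (4.0.16) and fitted with limma-voom (limma 3.58.1, R 4.3.3) over all libraries with 1 mean per group. A gene was called at p under 0.05 and a Benjamini-Hochberg adjusted p under 0.25. Tested on simulated data, the fit recovered 85.2% of 196 genes changed 2-fold among 11190 genes, and 23% of its 217 calls were false. Every simulated knockdown library had the same 2-fold change. In the data HFD/FGFR4 KD 1 stood apart and the median size of the kept differences was 0.56 (log2). These rates therefore do not carry over to the 1677 calls. The alternatives tried were DESeq2 (1.42.0) on rounded counts, the quasi-likelihood test of edgeR, other scalings and filters, quality weights, the replicate number as a block and leaving out each library.

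Members, gene lists and tests were chosen with earlier results of these data known. Besides *Fgfr4*, *Cyp7a1*, *Gpc1* and *Ces2a*, genes were named from the lists, and up to 6 per class by smallest p, with a mean of at least 1 CPM, no predicted genes and, for kept and new genes, no overlap between groups. Shared sequence was the percentage of all 31-base words in a gene's annotated transcripts that another gene also holds. A few genes that the rule would name are not reported here.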

Additional observations from a re-analysis of the deposited data

Results flagged for a closer look

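In 16 of 260 gene and group pairs of the named genes, a single library lay far from the other 3 by Dixon's test, which chance does in about 1 of 20 groups. The library was HFD/FGFR4 KD 1 in 9 of them. It was high, towards Chow, for *C8b* (237 CPM against 81.7 to 101 in the other knockdown livers), *Ces3b* (299 against 79.1 to 105), *Cyp7b1* (336 against 48.1 to 71.3), *Gstp1* (437 against 172 to 187), *Hsd3b5* (166 against 1.49 to 10.1) and *Ugt2b1* (354 against 143 to 170). It was low, again towards Chow, for *C1qc* (13.9 CPM against 17.9 to 18.4), *Cyp2c38* (35.3 against 91.8 to 97.0) and *Slc17a4* (42.5 against 62.6 to 64.6). *Fgfr4* itself, at 2.82 CPM in this library, was as low as in the others.

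Of the rest, HFD/FGFR4 KD 2 was low for *Abca2* (32.5 CPM against 53.4 to 56.3), HFD/FGFR4 KD 3 was high for *Crls1* (46.3 against 35.8 to 37.0), and HFD/FGFR4 KD 4 was high for *Timd4* (6.22 against 2.38 to 2.66). Among Chow libraries, Chow 3 was high for *Cd81* (214 CPM against 164 to 172) and *Raet1d* (25.2 against 10 to 11.5), and Chow 2 was low for *Cyp8b1* (267 against 384 to 398) and high for *Mki67* (3.39 against 1.22 to 1.44).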

How the results depend on the processing

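Of 102 named genes called against Chow, 83 were called in every fit, and none changed direction in any fit in which it was called. Part of them were chosen by smallest p and no overlap between groups, which favours calls in other fits. Their share therefore does not carry over to all called genes. Scaling by library totals called 2596 genes, 2353 higher and 243 lower (853 and 824 with TMM), and kept 1978, since it shifts all differences upwards. With sample quality weights there were 882 new genes. At an adjusted p under 0.05 there were 219 called genes, with 179 kept, 190 at chow level and 40 new. The number at chow level was 92 with a limit of 1.2-fold and 1373 with a limit of 2-fold, so it depends on the limit chosen. Leaving out each library in turn gave 797 to 2309 called genes, 612 to 1474 kept, 659 to 944 at chow level and 183 to 826 new, with 123 to 264 called genes of the lists. The lowest counts came without HFD/FGFR4 KD 4, except 659 without Chow 1, and the highest without HFD/FGFR4 KD 1, except 944 without Chow/FGFR4 KD 4. The new genes also called against HFD numbered 23 to 93 in these fits (73 with all libraries). The cause was not tested. The quasi-likelihood test of edgeR called 1730 genes and DESeq2 1425.

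Deviations from the group mean were weakly correlated between same-numbered Chow and HFD/FGFR4 KD libraries (Pearson's r across genes of 0.17, -0.016, 0.066 and 0.105 for numbers 1 to 4). Differently numbered libraries were not correlated for reference, so these values cannot decide whether the numbers pair the libraries. With the replicate number as a block, 1727 genes were called, 1144 were kept, 892 at chow level and 577 new.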
